A study of Mus musculus with 8 samples.

Results

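The 7 genes described here make, convert, sense, store or bind oxysterols: Ch25h, Cyp27a1, Cyp7b1, Hsd3b7, Gpr183, Soat1 and Osbp. They were chosen by symbol from 21887 protein-coding genes on the autosomes, X and Y, and all 7 are among the 14589 genes with enough called signal to test. Acetylation of histone H4, a chromatin mark found at active promoters and enhancers, was mapped by ChIP-seq in bone-marrow-derived macrophages (BMDM) of C57BL/6 mice. The 4 groups were untreated cells, cells stimulated with PAM3 (PAM3CSK4, a synthetic lipopeptide sensed by Toll-like receptors), cells treated with 25HC (25-hydroxycholesterol), and cells treated with 25HC and then stimulated with PAM3. Each group holds 2 libraries, 1 from mouse A and 1 from mouse B, so the same 2 mice supply every group. The labels' stimulation time, which carries no unit, is 18 for PAM3 libraries and 0 for all others, so PAM3 and that time cannot be told apart. Dose and duration of 25HC are not given in these sources.

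Oxysterols are oxidised forms of cholesterol that act as signals. Cholesterol 25-hydroxylase, encoded by Ch25h, makes 25HC, and the gene is known to be induced in macrophages by Toll-like receptor ligands and interferon. CYP7B1 adds a hydroxyl group to 25HC, and HSD3B7 acts on the product. Between these steps the sterol is a chemoattractant for GPR183 (EBI2), a G protein-coupled receptor that positions immune cells. Oxysterols also suppress cholesterol synthesis, activate liver X receptors, stimulate esterification of cholesterol by SOAT1 and bind OSBP, which carries sterol between membranes.

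The deposited lists give the start and end of each broad acetyl-H4 peak in each library. The measure was called length, the base pairs of a library's peaks in a gene window, which is the gene body extended by 5 kb at each end (GRCm38). A peak list says where signal passed the authors' threshold, not how much signal there was, so a called length of 0 is no measure of absent acetylation. The 8 lists hold 48446 to 54552 peaks that cover 56.6 to 72.4 Mb, and their read depth is unknown. Macrophage markers were well covered: all 12 fixed markers passed the length minimum, with summed called lengths of 74960 to 86805 bp without PAM3 and 80761 to 107640 bp with it (for the average PAM3 effect 3 rose and 1 fell). Of the lymphocyte markers Cd3e, Cd8a and Ncr1 were at 0 in all 8 libraries, of the fibroblast and endothelial markers Col1a2, Col3a1 and Dcn, of the neutrophil markers Ly6g and of the dendritic cell markers Cd209a. Other markers were covered: 6 of 9 lymphocyte and 3 of 7 fibroblast and endothelial markers passed the length minimum. The lymphocyte markers summed to 12728 to 15803 bp without PAM3 and 9536 to 13581 bp with it. The fibroblast and endothelial markers summed to 10751 to 14990 bp and 12324 to 13525 bp. For the average PAM3 effect Cd4 fell by 0.49 on the log2 scale (limma adjusted p = 0.0215) and 0 lymphocyte markers rose. Summed called length of the 6 neutrophil markers was 15493 to 17534 bp without PAM3 and 8100 to 13553 bp with it, and of the 6 dendritic cell markers 22145 to 30022 bp and 16546 to 20048 bp. The dendritic cell markers did not move one way: for the average PAM3 effect Siglech fell by 1.76 and Clec9a by 0.96 on the log2 scale, while Xcr1 rose by 0.34 (limma adjusted p = 0.00261, 0.0215 and 0.0259). The part of these marker shifts in the results below was not tested. In material from many cells, fewer cells of a type and less signal per cell cannot be told apart.

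The promoters of 5 members are shown because the peaks at their starts differed between libraries, in whether they covered the start or, for Cyp27a1, in length. Each runs from 250 bases before to 50 bases after the annotated start (RefSeq, GRCm38.p6), 5′ to 3′ along the gene's own strand. Promoter entries were found for 6 of the 7 members. Capitals mark matches on either strand to any of 9 short motifs, a list chosen after the Ch25h promoter had been read.
Ch25h: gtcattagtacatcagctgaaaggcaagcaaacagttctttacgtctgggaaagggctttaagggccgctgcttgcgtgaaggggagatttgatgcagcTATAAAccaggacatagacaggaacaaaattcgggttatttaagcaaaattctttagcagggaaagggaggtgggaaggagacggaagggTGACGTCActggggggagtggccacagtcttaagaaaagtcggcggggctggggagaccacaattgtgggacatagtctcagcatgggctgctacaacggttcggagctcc
Gpr183: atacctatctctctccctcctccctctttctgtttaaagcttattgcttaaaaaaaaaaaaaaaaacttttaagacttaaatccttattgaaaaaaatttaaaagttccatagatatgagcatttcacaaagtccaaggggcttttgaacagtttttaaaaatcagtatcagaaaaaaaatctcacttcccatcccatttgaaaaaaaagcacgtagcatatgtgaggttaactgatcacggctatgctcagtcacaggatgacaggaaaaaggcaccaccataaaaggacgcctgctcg
Soat1: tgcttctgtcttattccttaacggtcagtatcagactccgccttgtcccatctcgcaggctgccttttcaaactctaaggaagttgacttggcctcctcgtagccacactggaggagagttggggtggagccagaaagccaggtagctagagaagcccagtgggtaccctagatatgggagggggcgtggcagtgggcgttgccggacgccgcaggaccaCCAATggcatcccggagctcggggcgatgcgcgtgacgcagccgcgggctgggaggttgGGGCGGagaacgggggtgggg
Cyp27a1: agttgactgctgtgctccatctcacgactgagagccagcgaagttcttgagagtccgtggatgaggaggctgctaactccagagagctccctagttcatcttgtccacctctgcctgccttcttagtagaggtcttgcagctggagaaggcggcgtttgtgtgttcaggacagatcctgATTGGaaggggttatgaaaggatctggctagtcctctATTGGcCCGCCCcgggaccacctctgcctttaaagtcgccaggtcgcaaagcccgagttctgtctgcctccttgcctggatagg
Osbp: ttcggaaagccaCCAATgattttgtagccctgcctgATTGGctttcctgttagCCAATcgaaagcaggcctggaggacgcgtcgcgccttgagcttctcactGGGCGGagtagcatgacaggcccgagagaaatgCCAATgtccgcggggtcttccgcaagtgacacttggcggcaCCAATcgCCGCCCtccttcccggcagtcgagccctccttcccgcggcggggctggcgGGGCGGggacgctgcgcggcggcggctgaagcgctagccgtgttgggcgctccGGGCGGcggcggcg
The Ch25h promoter lies at chr19:34475099-34475398 on the minus strand, that of Gpr183 at chr14:121965144-121965443 on the minus strand, that of Soat1 at chr1:156474279-156474578 on the minus strand, that of Cyp27a1 at chr1:74713285-74713584 on the plus strand and that of Osbp at chr19:11965594-11965893 on the plus strand. Both strands were searched. The ATF/CRE site was searched as TGACGTCA and the sterol response element as TCACNNCAC. For AP-1 sites the letters TGANTCA were used. For the CCAAT box the name gives the letters, and the TATA box was searched as TATAAA. For the GC box, a frequent element of promoters without a TATA box, the letters were GGGCGG. The NF-kappaB site, the interferon response element and the LXR direct repeat were searched with degenerate consensus letters. No match overlaps another. In the Ch25h promoter TGACGTCA stands at −61 to −54 and TATAAA at −151 to −146. Among the 17492 promoters of the table, 2.34% hold TGACGTCA and 13.34% hold TATAAA. The Cyp27a1 promoter holds CCAAT in 2 places and the GC box in 1, the Soat1 promoter holds each in 1 place, and the Osbp promoter holds CCAAT in 5 places and the GC box in 4; 39.03% of promoters hold CCAAT and 46.32% hold the GC box. None of these letters was found in the Gpr183 promoter, whose GC content of 35.33% lies below the lower quartile of all promoters, 47.92%. Of all promoters 7.08% hold the AP-1 letters, 4.6% the NF-kappaB letters, 0.4% the interferon response letters, 3.48% the sterol response letters and 0.03% the LXR repeat. These matches describe letters only.

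The first question was whether PAM3, 25HC or their sequence changed called length over the members. None of the 7 genes passed the test (limma, Benjamini-Hochberg adjusted p under 0.05 over the 14589 genes) in any of the 7 contrasts. At an unadjusted p under 0.05 there was 1, Gpr183, for 25HC then PAM3 against 25HC and for the average PAM3 effect, and 0 in the other 5 contrasts. At that unadjusted cut there were 3120 and 3921 of all 14589 genes in the same order, so 1 of 7 is not above the background. Over all genes, 3.87% were called for PAM3 against untreated, 5.02% for 25HC then PAM3 against 25HC and 11.8% for the average PAM3 effect, which sets 4 libraries with PAM3 against 4 without. The contrasts of 25HC called few genes of any kind: 0.0343% for 25HC against untreated, 0.0685% for the average 25HC effect, 1.3% for 25HC then PAM3 against PAM3 and 0.0% for the difference between the PAM3 responses with and without 25HC. The members' median log2 change was −0.01 for the average PAM3 effect, against −0.01 over all genes tested, and 0.11 for the average 25HC effect, against 0.01. Contrasts that share a group share its libraries and are not independent. Each group mean rests on 2 mice.

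**Figure D1:**
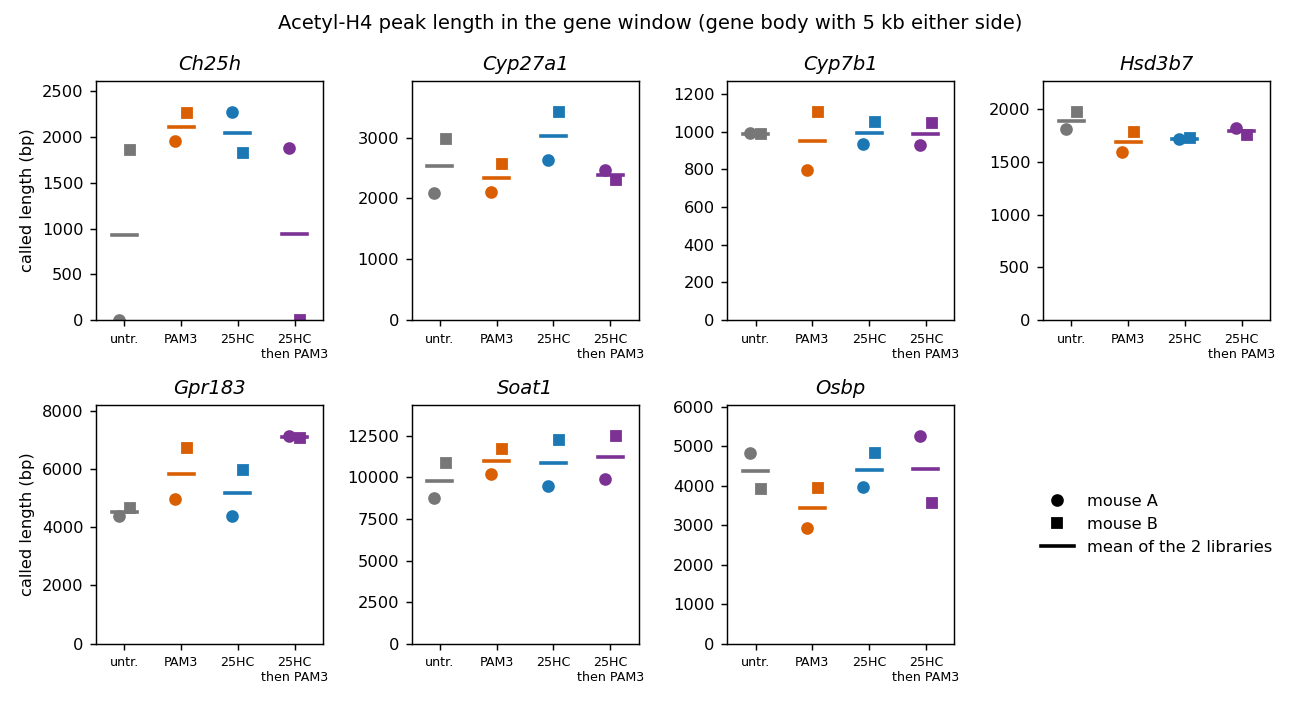
Called length of acetyl-H4 peaks (vertical axis, bp) in the windows of the 7 members, by group (horizontal axis); circles are mouse A, squares mouse B and bars the mean of the 2 libraries. Gpr183 is longest in both libraries given 25HC then PAM3 (7135 and 7069 bp), and Ch25h is at 0 in 1 untreated library and in 1 library given 25HC then PAM3.

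Coverage differed widely between members before any treatment was compared. As a share of the window, mean called length over the 8 libraries was 24.762% for Gpr183, 19.056% for Soat1, 13.434% for Hsd3b7, 13.269% for Ch25h, 10.851% for Osbp, 7.395% for Cyp27a1 and 0.539% for Cyp7b1. The median tested gene had 8.33%. Gpr183 thus stood at percentile 96.1 of tested genes, Soat1 at percentile 90.0, and Cyp7b1, whose window spans 181947 bp, at percentile 1.2. Hsd3b7 and Ch25h, neighbours in that order, differed by far less than the spread of Ch25h between libraries. In all, 147 peaks fell in the 7 windows and merged into 30 regions. Of these regions 9 were present in all 8 libraries (30.0%, against 29.765% of all 83297 merged regions) and 10 in 1 library only (33.33%, against 22.413%).

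Ch25h (chromosome 19, 34473783 to 34475148, minus strand), the gene for the enzyme that makes 25HC, carried a single peak over its start in 6 of the 8 libraries. Called length in its window was 0 and 1861 bp in the untreated libraries of mouse A and B, 1960 and 2266 bp with PAM3, 2271 and 1826 bp with 25HC, and 1881 and 0 bp with 25HC then PAM3. The 2 libraries without any peak belong to different mice and different groups, and where the peak was called its length varied little, from 1761 to 2027 bp. It began at −1157 to −890 bp and ended at 869 to 924 bp relative to the start, so it covered the whole 300 bases printed above in 6 libraries and none of them in the other 2.

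The average change of Ch25h with PAM3 was 0.03 on the log2 scale (SE 0.68, 95% interval −1.66 to 1.72, limma adjusted p = 0.985), and with 25HC 0.01 (SE 0.68, adjusted p = 0.996). The PAM3 response differed by −2.55 between cells with and without 25HC (SE 1.37, 95% interval −5.93 to 0.83, adjusted p = 0.634). That difference rests on the 2 libraries at 0: it was −1.39 when the B library of 25HC then PAM3 was left out and −3.72 when the A library was, and its size is set by the 500 bp added before taking logs. With intervals this wide, no change in this gene was detectable from the peak lists. Among 17492 genes with an annotated start, the start was covered in all 8 libraries for 6845 and in exactly 6 for 474. Of these 474 genes, 13 lacked cover in the same pair of libraries as Ch25h, and the median over the 28 possible pairs was also 13.

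Further from Ch25h, 17 merged regions lay within 50 kb of the start, and the only other protein-coding gene there is Lipa, the lysosomal acid lipase that releases cholesterol from esters. Of these, 3 (17.6%) were present in all 6 treated libraries and in neither untreated one. The nearest lies 9511 to 12452 bp past the start, chr19:34462696-34465637. Its called length was 0 in both untreated libraries, 593 and 2462 bp with PAM3, 2136 and 1291 bp with 25HC, and 656 and 1038 bp with 25HC then PAM3. The treated libraries thus ranged widely among themselves. The region 26343 to 27444 bp past the start covered 488 and 1032 bp with PAM3, 785 and 1012 bp with 25HC, and 538 and 986 bp with 25HC then PAM3. The region at −36665 to −35623 bp, which lies inside the Lipa gene, covered 426 and 1012 bp, 869 and 869 bp, and 950 and 899 bp in the same order. Over all merged regions 0.261% had that pattern, which was picked out after the values around Ch25h were seen, and regions of 1 neighbourhood are not independent. Lipa itself was not called in any contrast; its smallest p was for 25HC against untreated, with a log2 change of 0.50 (SE 0.44, limma adjusted p = 1.0).

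**Figure D2:**
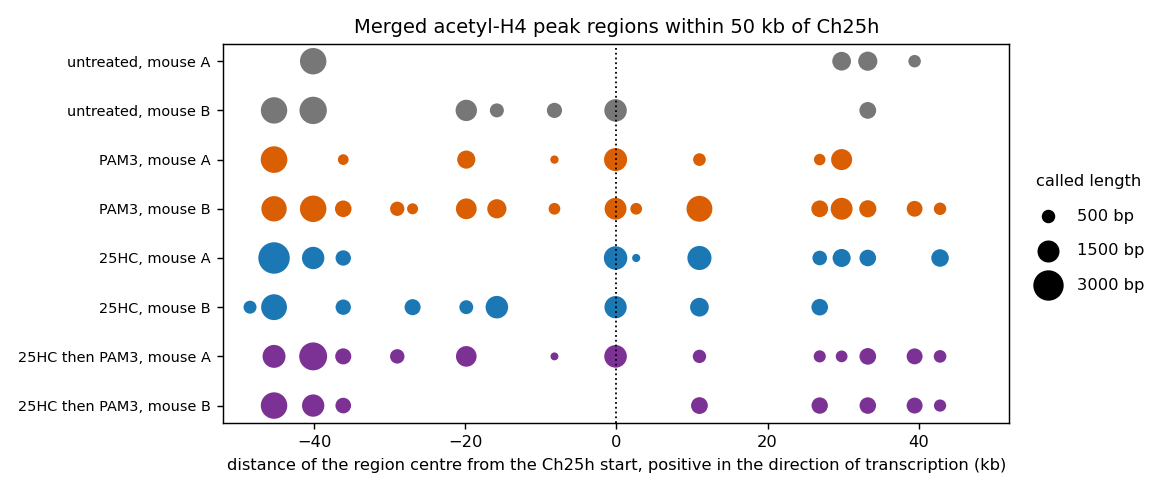
Merged peak regions within 50 kb of the Ch25h start (horizontal axis, distance of the region's centre in kb, positive in the direction of transcription) in each library (vertical axis), with the area of a point proportional to called length. The regions that begin 9511 and 26343 bp past the start and the one at −36665 to −35623 bp are present in every library except the 2 untreated ones, and the peak at the start is missing from untreated A and from 25HC then PAM3 B.

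Cyp27a1 (chromosome 1, 74713148 to 74737897, plus strand), the mitochondrial enzyme that hydroxylates the cholesterol side chain, had a shorter peak at its start in every library with PAM3. This peak was present in all 8 libraries and measured 2087 and 2335 bp without treatment, 2075 and 2045 bp with 25HC, 1819 and 1876 bp with PAM3, and 1830 and 1800 bp with 25HC then PAM3. The groups do not overlap: 2045 to 2335 bp without PAM3 and 1800 to 1876 bp with it. Both edges lay nearer the start with PAM3, at −1370 to −1295 bp and 448 to 534 bp relative to it, against −1485 to −1426 bp and 601 to 899 bp without. Among 6845 genes with a peak over the start in all 8 libraries, 8.12% were shorter in all 4 libraries with PAM3 without overlap and 5.41% longer. The printed Cyp27a1 promoter lies wholly inside this peak in all 8 libraries. Whole-window called length showed no such split, because other peaks of the gene came and went: it was 2087 and 2983 bp without treatment, 2104 and 2568 bp with PAM3, 2631 and 3418 bp with 25HC, and 2460 and 2307 bp with 25HC then PAM3. The average PAM3 change over the window was −0.17 (SE 0.13, 95% interval −0.49 to 0.15, limma adjusted p = 0.458) and the average 25HC change 0.15 (SE 0.13, adjusted p = 0.716).

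A short region inside Cyp27a1, chr1:74715560-74716066, was called only in the 2 libraries given 25HC then PAM3, with 415 and 507 bp. It was the only 1 of the 30 member regions with that pattern, which 2.3% of all merged regions show. Another region in the gene body, chr1:74726911-74728729, covered 556 and 1373 bp with 25HC, 0 and 212 bp without treatment, 285 and 0 bp with PAM3, and 215 and 0 bp with 25HC then PAM3. The 25HC libraries were thus the 2 highest, but this region was picked out after its values were seen and was present in 5 libraries.

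The 2 enzymes that clear 25HC kept nearly constant peaks. Cyp7b1 (chromosome 3, 18071944 to 18243890) held 1 peak per library, over its right end, of 992 and 989 bp without treatment, 799 and 1104 bp with PAM3, 934 and 1050 bp with 25HC, and 932 and 1046 bp with 25HC then PAM3. The groups overlapped throughout, and the coefficient of variation over the 8 libraries was 9.6%. Its average PAM3 change was −0.01 (SE 0.10, 95% interval −0.26 to 0.24, limma adjusted p = 0.954) and its average 25HC change 0.05 (SE 0.10, 95% interval −0.20 to 0.30, adjusted p = 0.89).

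Hsd3b7 (chromosome 7, 127800609 to 127803802, plus strand) had 2 regions, both present in all 8 libraries. Called length was 1813 and 1971 bp without treatment, 1592 and 1784 bp with PAM3, 1717 and 1724 bp with 25HC, and 1823 and 1756 bp with 25HC then PAM3, the smallest relative spread of the members (coefficient of variation 6.11%). Its start peak ran from 1022 to 1146 bp in length and began at −77 to −36 bp relative to the start. The average PAM3 change was −0.03 (SE 0.07, 95% interval −0.21 to 0.15, limma adjusted p = 0.828) and the average 25HC change 0.01 (SE 0.07, 95% interval −0.17 to 0.19, adjusted p = 0.982). The second region, 6507 to 7491 bp past the start, lies outside the gene, and the window of Setd1a overlaps that of Hsd3b7. These 2 enzymes had the narrowest intervals of the average effects among the members.

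**Figure D3:**
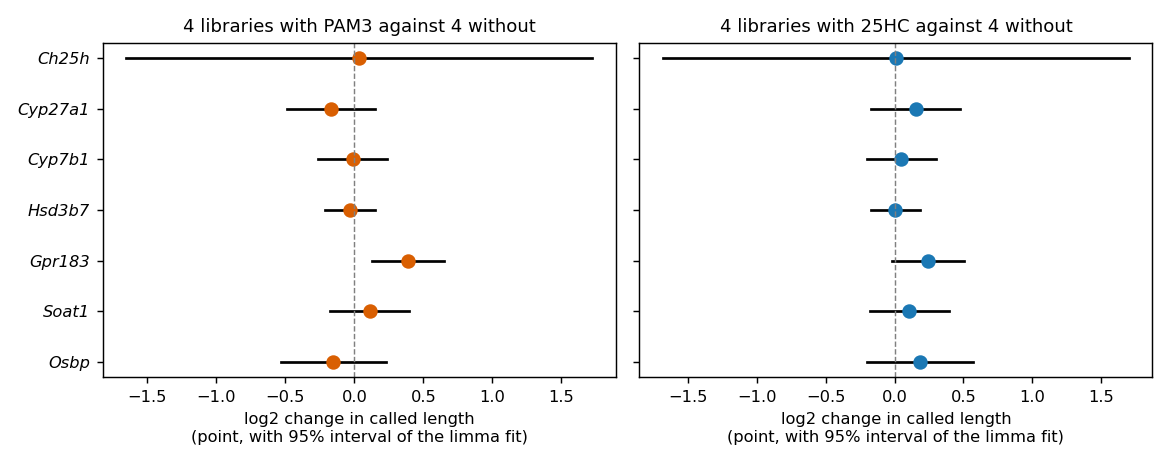
Log2 change in called length of the 7 members (vertical axis) with PAM3 (left panel) and with 25HC (right panel), each over 4 libraries against 4; points are limma estimates and lines their 95% intervals. Gpr183 with PAM3 is the only interval that does not include 0, and Ch25h has the widest intervals.

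Gpr183 (chromosome 14, 121952331 to 121965193, minus strand), the receptor for dihydroxylated oxysterols, showed the most PAM3-related pattern of the members, without passing the threshold. Called length was 4398 and 4670 bp without treatment, 4957 and 6724 bp with PAM3, 4381 and 5956 bp with 25HC, and 7135 and 7069 bp with 25HC then PAM3. Both libraries given 25HC then PAM3 were above all others, while PAM3 A lay below 25HC B, so libraries with and without PAM3 overlapped. The average PAM3 change was 0.39 (SE 0.11, 95% interval 0.13 to 0.65, limma adjusted p = 0.0722), a 1.31-fold difference on the scale of bp plus 500. Over 8 fits that each left out 1 library it stayed between 0.30 and 0.48, with adjusted p from 0.0684 to 0.178. With no flank or a 2 kb flank the adjusted p was 0.0363 and 0.0428. Over the 15 alternatives that kept all 8 libraries, the change ran from 0.20 to 0.61 and passed in 3. The limma adjusted p reached 0.551 among them and was 0.0833 with the mouse as a block.

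The single contrasts of Gpr183 were of similar size. PAM3 against untreated gave 0.37 (SE 0.15, limma adjusted p = 0.265) and 25HC then PAM3 against 25HC gave 0.41 (SE 0.15, adjusted p = 0.187). The difference between these 2 responses was 0.05 (SE 0.21, 95% interval −0.47 to 0.57, adjusted p = 0.973). For 25HC against untreated the change was 0.22 (95% interval −0.15 to 0.59, adjusted p = 1.0), for 25HC then PAM3 against PAM3 0.27 (95% interval −0.10 to 0.64, adjusted p = 0.486), and the average 25HC change was 0.24 (SE 0.11, adjusted p = 0.474). The whole Gpr183 window lies inside the gene body of Ubac2, which had an average PAM3 change of −0.03 (limma adjusted p = 0.846). Peaks of Gpr183 are therefore counted in the called length of Ubac2 too, so Ubac2 is no independent comparison.

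At Gpr183 both the start and a region of the gene body differed between libraries. The region over the start covered 3758 and 3718 bp without treatment, 3185 and 5020 bp with PAM3, 3134 and 3708 bp with 25HC, and 4958 and 5155 bp with 25HC then PAM3, so PAM3 A lay below 3 of the 4 libraries without PAM3. A peak spanned the annotated start in PAM3 B (5020 bp long), in 25HC then PAM3 A (4958 bp) and in 25HC then PAM3 B (5155 bp), and in none of the 4 libraries without PAM3. Without PAM3 the peak began 882 to 923 bp inside the gene, and in 3 of those libraries a separate short peak of 315 to 379 bp lay upstream of the start. In PAM3 A the peak began 82 bp inside the gene and ended at 1487 bp, so this library was intermediate. Accordingly the printed Gpr183 promoter was covered over all 300 bases in 3 libraries and over 0 in the other 5. Of the 9776 genes whose start was covered in at least 1 library, 0.829% were covered in at least 3 of the 4 libraries with PAM3 and in none without. That pattern was set after the Gpr183 peaks were seen, so its small share is a description only.

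In 1 kb bins, called where peaks cover at least 50% of the bin, 45 bins of the members were called in at least 1 library. The bin chr14:121964001-121965000, just inside the Gpr183 start, was called in all 4 libraries with PAM3 and none without. No member bin showed the reverse. Over all 117757 called bins, 1.79% were called in all 4 libraries with PAM3 and none without, and 2.09% the reverse, so 1 of 45 is near the background. A second region of Gpr183, chr14:121954495-121957088 in the gene body, covered 1398 and 1567 bp with PAM3 and 1605 and 1729 bp with 25HC then PAM3. Without PAM3 it covered 0 and 671 bp without treatment and 862 and 1355 bp with 25HC. The 4 libraries with PAM3 were thus above the 4 without by a small margin. This region was picked out after its values were seen, and the share of all merged regions with such a split was not counted.

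**Figure D4:**
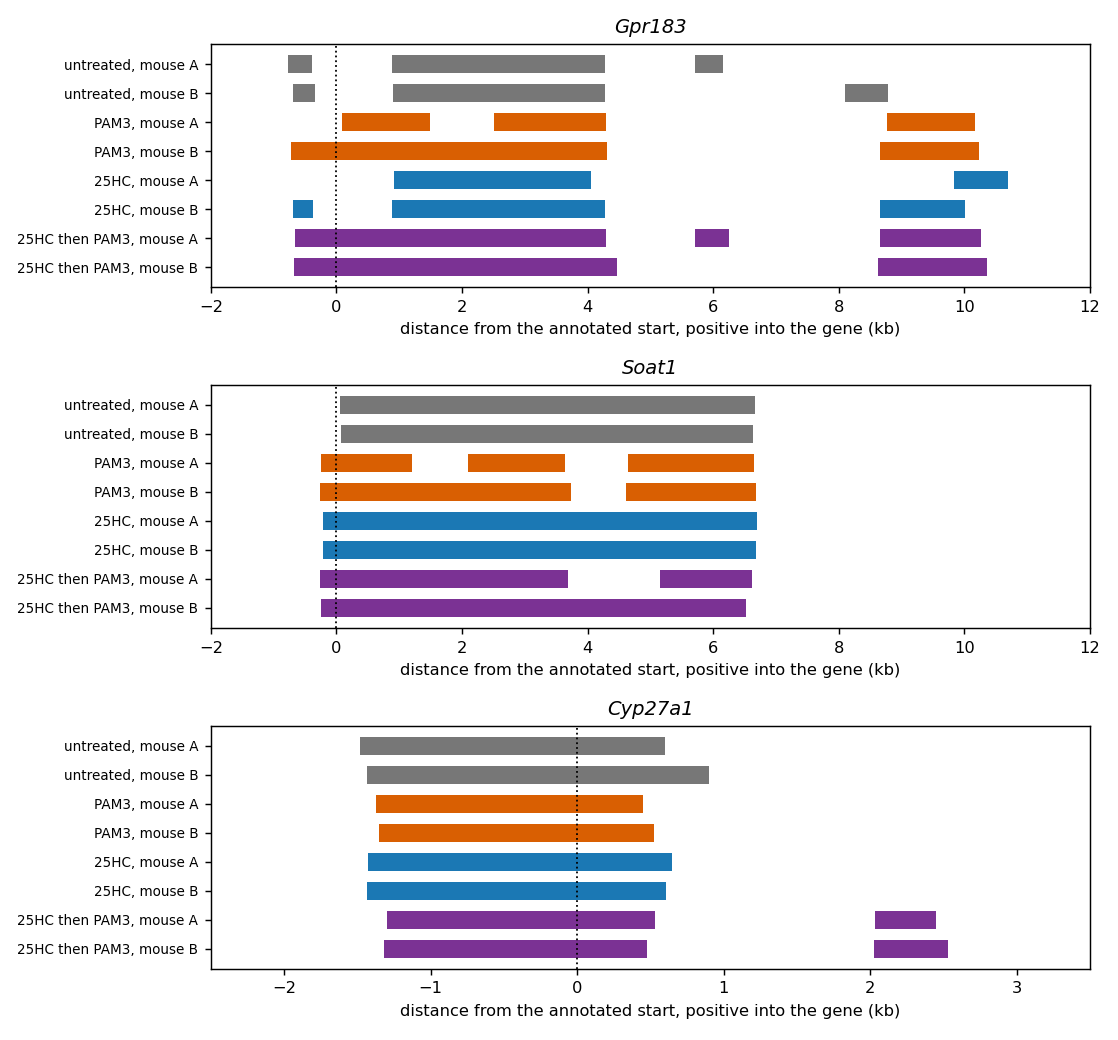
Peaks (bars) of each library (vertical axis) by distance from the annotated start in kb (horizontal axis, positive into the gene, dotted line at the start) for Gpr183, Soat1 and Cyp27a1. At Gpr183 the gap just inside the start is filled in the libraries with PAM3, at Soat1 only the untreated peaks stop short of the start, and at Cyp27a1 the start peak is shorter in the 4 libraries with PAM3.

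Soat1 (chromosome 1, 156428108 to 156474328, minus strand), which esterifies cholesterol for storage in lipid droplets, had the longest called length of the members in bp. It was 8781 and 10842 bp without treatment, 10197 and 11726 bp with PAM3, 9492 and 12242 bp with 25HC, and 9932 and 12496 bp with 25HC then PAM3. In each of the 4 groups mouse B was above mouse A, and the groups overlapped. The average PAM3 change was 0.11 (SE 0.12, 95% interval −0.17 to 0.40, limma adjusted p = 0.591) and the average 25HC change 0.11 (SE 0.12, 95% interval −0.18 to 0.40, adjusted p = 0.765).

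Single regions of Soat1 differed more than the total. A region in the gene body 19115 to 20312 bp past the start, chr1:156454016-156455213, covered 419 and 604 bp with PAM3 and 704 and 1198 bp with 25HC then PAM3, and 0 in all 4 libraries without PAM3. It was the only member region present in all 4 libraries with PAM3 and in none without, a pattern of 1.68% of all merged regions. The reverse pattern, held by 1.63% of all, occurred in 0 of the 30. The region over the Soat1 start covered 6609 and 6551 bp without treatment, 5000 and 6085 bp with PAM3, 6915 and 6893 bp with 25HC, and 5389 and 6778 bp with 25HC then PAM3, so 3 of the 4 libraries with PAM3 were below all without. The start itself lay inside a peak in all 6 treated libraries, whose peaks began at −263 to −208 bp, while the untreated peaks began 58 and 77 bp inside the gene. This is a small shift of a peak edge. Of the 9776 genes, 0.184% had their start covered in all 6 treated libraries and in neither untreated one, a pattern picked out after the values were seen. The printed Soat1 promoter was covered over 258 to 300 bases in the treated libraries and over 0 in the untreated ones.

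Osbp (chromosome 19, 11965844 to 11994114, plus strand), a sterol carrier at contacts of the endoplasmic reticulum with the Golgi, covered 4830 and 3914 bp without treatment, 2927 and 3939 bp with PAM3, 3967 and 4820 bp with 25HC, and 5260 and 3564 bp with 25HC then PAM3. The groups overlapped, and the highest and the second lowest library both belonged to 25HC then PAM3. The average PAM3 change was −0.15 (SE 0.15, 95% interval −0.53 to 0.23, limma adjusted p = 0.587) and the average 25HC change 0.19 (SE 0.15, 95% interval −0.20 to 0.57, adjusted p = 0.712). A region 3714 to 5749 bp past the start covered 2016 and 1888 bp with 25HC then PAM3, against 272 and 624 bp without treatment, 0 and 735 bp with PAM3 and 223 and 1260 bp with 25HC. It was picked out after its values were seen, and the share of all merged regions that separate the groups in this way was not counted. In 25HC then PAM3 B no peak was called over the Osbp start region, which covered 1214 to 2120 bp in the other 7 libraries; this library also lacked the Ch25h start peak. In 25HC A 1 peak ended 606 bp before the start and another began 363 bp past it, so the printed Osbp promoter was covered over all 300 bases in 6 libraries and over 0 in these 2. 25HC then PAM3 B was the only library without cover at the start for 245 genes, against 78 to 271 over the 8 libraries.

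Read in 1 kb bins per contrast, a bin counted as gained or lost where both libraries of a group had it and neither of the other did. For PAM3 against untreated the members gained 4 and lost 3 of 37 bins, against 6.15% and 8.25% of all bins. For 25HC then PAM3 against 25HC they gained 4 and lost 1 of 42, against 10.7% and 7.71%. For 25HC against untreated they gained 2 and lost 0 of 39, against 1.75% and 3.68%, and the 2 were the bin over the Soat1 start and a bin in Osbp. For 25HC then PAM3 against PAM3 they gained 3 and lost 0 of 39, against 6.48% and 4.71%, of which 2 lay in Osbp and 1 in Soat1. Counts this small do not separate the members from the background.

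Other genes whose called length followed a member most closely over the 8 libraries were found by Pearson correlation, given as a description. For Ch25h they were Dnajb9 (r = 0.997) and Atp5k (r = 0.996), which were also at 0 in untreated A and 25HC then PAM3 B and covered in the other 6. For Gpr183 they were Trmt2b (r = 0.974) and H3f3b (r = 0.971). For Cyp27a1 they were Ykt6 (r = 0.948) and Dnah11 (r = 0.934), for Cyp7b1 Rragc (r = 0.94) and C1qtnf12 (r = 0.925), for Hsd3b7 Armc1 (r = 0.942) and Rpl15 (r = 0.938), for Soat1 Arih2 (r = 0.967) and Slc26a10 (r = 0.964), and for Osbp Hspb7 (r = 0.915) and H2bc13 (r = 0.913). These genes were picked as the highest of 14589 over 8 libraries, and all genes of a library share its peak calling. Among the members themselves the pairwise r ran from −0.365 for Soat1 with Osbp to 0.623 for Ch25h with Cyp27a1.

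The wider oxysterol pathway was read through 5 lists of 70 genes, of which 63 had enough called length to test. For the average PAM3 effect 6 rose and 3 fell, for PAM3 against untreated 2 rose and 1 fell, for 25HC then PAM3 against 25HC 2 rose and 1 fell, and for 25HC then PAM3 against PAM3 0 rose and 1 fell. In the other 3 contrasts none passed. As shares of the 63 genes these are 14.3%, 4.76%, 4.76% and 1.59%, against 11.8%, 3.87%, 5.02% and 1.3% of all genes, so the lists as a whole were near the background. For the average PAM3 effect the share was 9.09% of the enzymes, 9.09% of the transfer proteins, 0.0% of the storage genes, 2 of the 10 sensing factors and 28.6% of the regulators, each from 6 to 22 tested genes. Covered length was made equal between libraries by keeping the peaks of highest deposited −log10 p. In a separate alternative, only peaks at a −log10 q of 5 or more were kept. Under neither was any list gene described here called for the average PAM3 effect, and both choose peaks by deposited values. How many of the 8 fits that each left out 1 library kept a call is given beside it, and adjusted p with the mouse as a block is given where the block ended the call.

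Among 15 oxysterol and bile acid enzymes, 11 of them tested, Hsd11b1 rose and Cyp8b1 fell. Hsd11b1 encodes a steroid reductase that also acts on an oxysterol, and its called length was 958 and 876 bp without treatment, 625 and 959 bp with 25HC, 3324 and 3033 bp with PAM3, and 2835 and 3361 bp with 25HC then PAM3. The libraries with and without PAM3 were far apart, with an average PAM3 change of 1.44 (SE 0.12, limma adjusted p = 0.00386) that held in all 8 fits leaving out 1 library. With covered length made equal by the deposited p it was 1.41 but no longer passed (limma adjusted p = 0.339), and with the stricter q it was 0.84 (adjusted p = 0.502). The change was 1.42 without 25HC (adjusted p = 0.0188, with the block 0.0512) and 1.46 with it (adjusted p = 0.0142), and the difference between them was 0.04 (SE 0.23, adjusted p = 0.982). Each of these single contrasts held in 6 of 8 fits; the first had adjusted p up to 0.0713 without an untreated library, and the second up to 0.0537 without 25HC A or 25HC then PAM3 B. With the stricter q the second was 0.10 (adjusted p = 0.996). Cyp8b1, a sterol hydroxylase of bile acid synthesis, covered 759 and 939 bp with 25HC then PAM3 and 1637 to 1893 bp in the other 6 libraries. It fell for 25HC then PAM3 against 25HC by 0.72 (SE 0.10, limma adjusted p = 0.0249, with the block 0.0559) and against PAM3 by 0.78 (SE 0.10, adjusted p = 0.0368, with the block 0.0937). The 2 calls held in 2 and 1 of the 8 fits with a library left out, all of them without a PAM3 library. With no flank or a 2 kb flank Cyp8b1 had too little called length to be tested, so most of its called length lies in the outer flank, and its window overlaps that of 1 other gene. The difference between the PAM3 responses of Cyp8b1 was −0.86 (SE 0.15, adjusted p = 0.168). The list's median for the average PAM3 effect was 0.03, against −0.01 over all genes.

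Among 23 oxysterol-binding and sterol transfer proteins, 22 of them tested, Gramd1a rose and Osbpl5 fell. Gramd1a, which moves cholesterol from the plasma membrane to the endoplasmic reticulum, covered 3317 and 1632 bp without treatment, 6641 and 9186 bp with PAM3, 4308 and 4915 bp with 25HC, and 5149 and 6586 bp with 25HC then PAM3. All libraries with PAM3 were above all without. It rose for PAM3 against untreated by 1.59 (SE 0.28, limma adjusted p = 0.0427, with the block 0.087; the call held in 1 of 8 fits, that without untreated A) and on average by 0.94 (SE 0.20, adjusted p = 0.0363, with the block 0.0689; 2 of 8 fits, those without an untreated library). Osbpl5, a transfer protein at endoplasmic reticulum contacts, covered 6118 to 6356 bp without PAM3 and 2695 to 4894 bp with it, and on average fell by 0.57 on the log2 scale (SE 0.12, limma adjusted p = 0.0424, with the block 0.0666; 2 of 8 fits, those without a library of 25HC then PAM3). The list's median for the average PAM3 effect was −0.03.

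Of the 7 genes of cholesteryl ester storage and release, 6 were tested and none passed in any contrast. For the average PAM3 effect 2 of the 6 were under an unadjusted limma p of 0.05, against 3921 of all 14589 genes. A count this small does not separate the list from the background. Soat2, the other cholesterol esterifying enzyme, had its smallest p for 25HC then PAM3 against 25HC, with a log2 change of 1.38 (SE 0.31, limma adjusted p = 0.0675). Its called length was 3203 and 5803 bp with 25HC then PAM3 and 1296 and 1361 bp with 25HC, but 2409 bp in untreated A. Lipe, the hormone-sensitive lipase, gave −0.47 for 25HC then PAM3 against PAM3 (adjusted p = 0.128), and Nceh1, a neutral cholesteryl ester hydrolase, gave −0.30 for PAM3 against untreated (adjusted p = 0.172). The list's median for the average PAM3 effect was 0.04.

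Of the 11 oxysterol-sensing factors, 10 were tested, and for the average PAM3 effect Nr1h3 rose and Rxra fell. Nr1h3 encodes the liver X receptor LXRα and covered 7698 to 8115 bp without PAM3 and 9366 to 10971 bp with it, a change of 0.38 (SE 0.07, limma adjusted p = 0.0232; 3 of 8 fits, those without PAM3 A, PAM3 B or 25HC then PAM3 B). Its window overlaps those of 3 other genes, and without the flank the change was −0.09 (adjusted p = 0.637), so the added length lay in the flanks. Rxra encodes the partner of the liver X receptors and covered 16774 to 22822 bp without PAM3 and 12015 to 16808 bp with it, ranges that overlap slightly, and fell by 0.40 on the log2 scale (SE 0.08, adjusted p = 0.0268; 1 of 8 fits, that without untreated B). Insig1, Srebf1 and Srebf2 of the sterol-sensing SREBP system did not pass. The list's median for the average PAM3 effect was −0.13.

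All 14 genes fixed as regulators of Ch25h were tested, and for the average PAM3 effect Tlr2 and Tlr1 were among those that rose, and Ifnar2 fell. Tlr2, a receptor for PAM3, covered 2285 to 2943 bp without PAM3 and 3615 to 5015 bp with it, a change of 0.62 (SE 0.10, limma adjusted p = 0.0195; 5 of 8 fits, with up to 0.0647 without untreated B, 25HC B or 25HC then PAM3 A), which was 0.20 without the flank (adjusted p = 0.469). Tlr1, its partner for this ligand, covered 4032 to 4905 bp and 5397 to 6225 bp, a change of 0.36 (SE 0.07, adjusted p = 0.0314, with the block 0.0515; 0 of 8 fits). Ifnar2, a subunit of the type I interferon receptor, covered 10410 to 12856 bp without PAM3 and 6459 to 10582 bp with it. On the log2 scale it fell by 0.46 (SE 0.08, adjusted p = 0.022; 3 of 8 fits, those without PAM3 A or a library of 25HC then PAM3) and, for PAM3 against untreated, by 0.77 (SE 0.11, adjusted p = 0.0309, with the block 0.0643; 2 of 8 fits, those without a library of 25HC then PAM3). Atf3, known to repress Ch25h and to bind ATF/CRE sites, did not pass; its smallest p was for 25HC then PAM3 against PAM3, with a change of 0.15 (adjusted p = 0.684). The list's median for the average PAM3 effect was 0.0044.

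**Figure D5:**
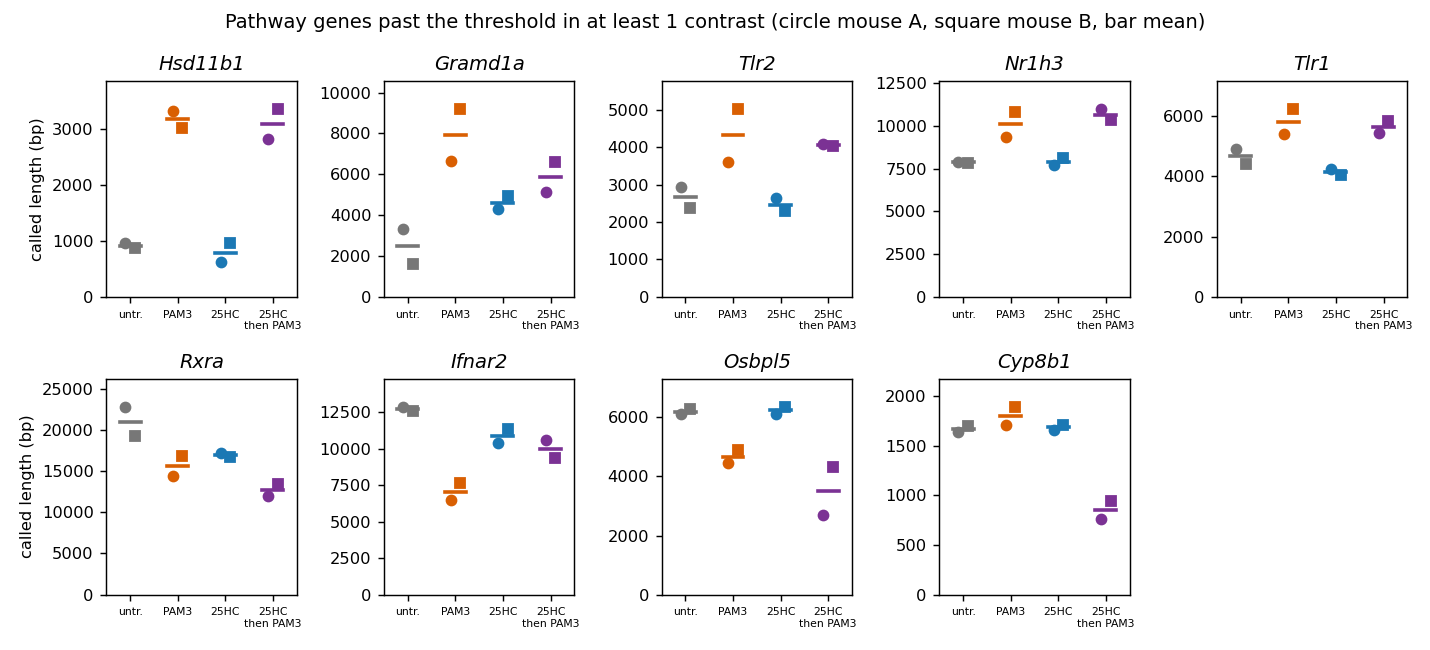
Called length (vertical axis, bp) by group (horizontal axis) of 9 pathway genes past the threshold in at least 1 contrast; circles are mouse A, squares mouse B and bars the mean of 2 libraries. Hsd11b1 separates the libraries with PAM3 (2835 to 3361 bp) from those without (625 to 959 bp), and Cyp8b1 is low only with 25HC then PAM3 (759 and 939 bp).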

How the data were processed

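Acetyl-H4 ChIP-seq was done with a rabbit polyclonal antibody (Millipore) and KAPA Hyper Prep libraries, per the labels' protocols. Reads were aligned with GSNAP and peaks called with MACS2 2.1.0 on GRCm38 (mm10), per the submitters' processing notes. Controls and thresholds are not stated there. The authors deposited 1 broadPeak list for each of the 8 libraries. Each peak carries the authors' fold ratio over background and the authors' −log10 p and −log10 q, as deposited. These deposited fold values followed the peaks weakly: between peaks of mouse A and B that overlapped by at least 80%, Spearman's rho was 0.122 to 0.241, and 0.109 to 0.207 when the value of the next peak was taken in its place. They therefore describe no member here, and no alternative selects peaks by them. Only 3 of the alternatives select peaks by the deposited −log10 p or −log10 q, for which no such rho is given here.

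Called length was the bp of peaks in the gene body extended by 5 kb at each end (RefSeq, GRCm38.p6). It was taken as log2(bp + 500), the median of each library was subtracted, and genes with a mean of at least 500 bp were kept. The added 500 bp means that log2 changes understate those of genes with little called length. All 8 libraries entered 1 model of 4 group means in limma 3.58.1 (R 4.3.3; empirical Bayes, trend and robust), with 4 residual degrees of freedom, two-sided tests and Benjamini-Hochberg adjustment over 14589 genes in each of 7 contrasts. Tested on simulated data (PAM3 against untreated, 14589 genes), it called 37 of 100 genes given a log2 change of 1 and 75 of 100 given one of 2, with 0 wrong directions and 10 false calls.

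The labels give the mouse of each library, and equal letters name 1 mouse. Over 6 pairs of groups, deviations of same-mouse libraries from their group mean had correlations of −0.017 to 0.0304, and the fit with the mouse as a block is an alternative. The members and gene lists were chosen with earlier results of these data known. The gene rule named the 7 members, list genes past the threshold or otherwise up to 3 per list, genes whose windows overlap a member's, and the 2 genes most alike each member; Lipa, Atf3, Insig1, Srebf1 and Srebf2 were named in addition. A few genes under this rule are not reported here, though counts over the lists include them. Motifs, single regions, start peaks and the surroundings of Ch25h were chosen or read after seeing the data. Merged regions, start peaks and 1 kb bins are descriptions without a test. The alternatives were other offsets, filters, flanks, peak thresholds, scalings and models, and each library left out in turn; 2 of them, which keep peaks by their length, were chosen after seeing the data.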

Additional observations from a re-analysis of the deposited data

How the results depend on the processing

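In 6 of the 7 contrasts, 0 members were called under any of the 23 or 24 alternatives run. For the average PAM3 effect, 1 member, Gpr183, was called with no flank (log2 0.43, limma adjusted p = 0.0363), with a 2 kb flank (0.44, adjusted p = 0.0428) and with covered length made equal by keeping the longest peaks (0.61, adjusted p = 0.0479), and 0 under the others. The sign moved under some alternatives, mostly where the change was close to 0, but also for Cyp8b1 and Nr1h3, whose changes of −0.72 and 0.38 had been called. For Ch25h the average PAM3 effect was −0.75 when peaks needed a −log10 q of at least 5, and the average 25HC effect was −0.017 without the median subtraction, −0.011 at the same covered length, −0.0084 at the same number of peaks and −0.024 with only peaks of at least 500 bp. For Hsd3b7 the average PAM3 effect was 0.039 with no flank and 0.029 with 2 kb, and the average 25HC effect was −0.29 with a 10 kb flank, −0.77 with the stricter q, −0.020 without the median subtraction and −0.13 at the same covered length. With that q the average PAM3 effect of Soat1 was −0.035, the average 25HC effect of Osbp −0.75, the change of Cyp8b1 for 25HC then PAM3 against 25HC 0.46 and the average PAM3 effect of Nr1h3 −0.45. With no flank that of Nr1h3 was −0.091, and with a 10 kb flank that of Osbp was 0.20. The difference between the PAM3 responses of Gpr183 was −0.059 at the same covered length, −0.028 with only peaks of at least 500 bp and −0.039 with the longest peaks. The cause was not tested.

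Leaving out 1 library at a time moved the average PAM3 effect of Ch25h from −0.55 to 0.62 and its average 25HC effect from −0.57 to 0.59, the average PAM3 effect of Cyp7b1 from −0.036 to 0.0090, the average PAM3 effect of Hsd3b7 from −0.063 to 3.9e-05 and its average 25HC effect from −0.025 to 0.038, and the difference between the PAM3 responses of Gpr183 from −0.12 to 0.22. With the mouse as a block, 0 members were called in any contrast, the adjusted p of Gpr183 for the average PAM3 effect was 0.0833, and over all genes 1236 were called for that effect in place of 1724, 168 in place of 564 for PAM3 against untreated and 281 in place of 733 for 25HC then PAM3 against 25HC. The block called 0 genes for 25HC then PAM3 against PAM3, 25HC against untreated and the average 25HC effect, in place of 190, 5 and 10. Too little called length left no value for Cyp7b1 at the same covered length, with the stricter q and with a mean of at least 1000 bp, and for Cyp8b1 with no flank or 2 kb. Member bins gained or lost in a contrast stayed between 0 and 4 with bins called at 25% or 75% cover and with the stricter q. Over all alternatives 0 to 10 genes of the pathway lists were called for the average PAM3 effect, against 9. Read depth, which sets which peaks are called, is unknown.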
